A study of Mus musculus with 30 samples.

Results

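The early response of mouse embryonic fibroblasts (MEFs) to 2 ways of reprogramming was compared on day 4, chemical reprogramming against delivery of 4 transcription factors. The comparison rests on 8 of the 30 RNA-seq libraries of the series, 2 in each of 4 of its 15 groups, chosen by their labels. In the 4-factor arm, MEFs of genotype 129XOG2 on day 0 were set against reprogramming intermediates of the same genotype on day 4 after lentivirus carrying Oct4, Sox2, Klf4 and c-Myc, in a medium with serum, serum replacement and doxycycline. In the chemical arm, MEFs of genotype CF1 on day 0 were set against reprogramming intermediates of genotype CF1 on day 4 in a chemical reprogramming medium whose composition the labels do not give. The protocol text attached to all libraries describes OG2 MEFs of early passage, and CF1 is given as the genotype and in the titles. Day 0 cells of both arms were cultured in the same MEF medium with fetal bovine serum. The p-values measure a spread between replicate libraries, pooled over 20 libraries in 10 groups of both arms. The labels do not say whether replicates are separate cultures, so this spread may be technical. Reprogramming method, mouse stock and deposited table differ together between the arms and cannot be told apart.

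Reprogramming turns a fibroblast into a cell that grows and differentiates like an early embryonic stem cell. Fibroblasts spread on plastic carry actin stress fibres, secrete collagen-rich matrix and respond to TGF-beta and to tension through the YAP and TAZ co-activators of TEAD factors. The 4 factors bind DNA directly, and their early action is known for the loss of fibroblast genes and a mesenchymal-to-epithelial transition, in which cadherin, claudin and keratin genes come on. Chemical reprogramming reaches the genome through receptors, kinases and chromatin enzymes, and well-known entry points are the Wnt pathway, whose targets include its own inhibitors, and retinoic acid receptors, whose targets include the enzymes that clear retinoic acid.

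Expression was read as FPKM (fragments per kilobase of transcript, scaled to the size of the library) and analysed as log2(FPKM + 1), a scale on which changes of weakly expressed genes are understated. For each gene the change from day 0 to day 4 was computed in each arm, and the difference of the changes, chemical minus 4-factor, was tested with limma. Calls required both a 2-fold change or more and an adjusted p (Benjamini-Hochberg) under 0.05, and "rose" and "fell" mean called throughout. FPKM sums ranged from 363338 to 434460 per library, and 12186 to 12975 genes per library reached 1 FPKM. Replicates correlated with r of 0.9947, 0.9956 and 0.9949 for 4-factor day 0, chemical day 0 and chemical day 4, and 29 to 36 genes differed over 2-fold within these pairs. The 4-factor day 4 pair stood apart (r = 0.9705): 533 genes differed over 2-fold, 389 of them higher in replicate 1, and 13 mitochondrially encoded genes held 11.6% of the FPKM sum in replicate 1 and 7.9% in replicate 2. Some counts that rest on this pair are therefore also given without 1 or the other of its libraries, and the rest are not. The fit gave each gene 1 spread for all groups. Standard errors and p-values of the 4-factor arm therefore do not fully carry the wider spread of this pair. A summed level of 3603 to 6765 FPKM over 8 mesenchyme markers was present in every library. Summed neural markers were higher on 4-factor day 4 (169 and 140 FPKM, from 27.1 and 26.7). Summed endothelial markers were higher on chemical day 4 (37.6 and 38.1 FPKM, from 6.4 and 6.23). So were Schwann and neural crest markers (26.5 and 26 FPKM, from 8.68 and 8.13). The part of these markers in the results was not tested.

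The delivered factors were looked at first. Pou5f1, which encodes Oct4, was listed at 0 in both 4-factor day 0 libraries and at 52.2 and 43.7 FPKM on day 4, and at 0 in all 4 chemical libraries. Sox2 rose in the 4-factor arm (0.274 and 0.402 FPKM on day 0 and 3.82 and 2.81 on day 4). Without the 4-factor day 4 libraries, neither Pou5f1 nor Sox2 would have reached the 1 FPKM in 2 libraries needed for testing. Klf4 and Myc fell in both arms: Klf4 went from 22.1 and 22.9 to 5.38 and 2.43 FPKM in the 4-factor arm and from 32.2 and 33.4 to 8.86 and 9.57 in the chemical arm. The fall of Myc was -2.54 ± 0.19 (SE) in the 4-factor arm and -1.52 ± 0.19 (SE) in the chemical arm. Gene-level FPKM does not separate delivered from endogenous transcripts, so the libraries are described as labelled.

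The arms shared a minority of their calls. Of 14259 genes tested, 1384 rose (9.71%) and 1111 fell (7.79%) in the 4-factor arm, and 1784 rose (12.5%) and 1246 fell (8.74%) in the chemical arm. For 4409 genes (30.9%) the changes themselves differed, 2284 (16.0%) with the chemical change above the 4-factor change and 2125 (14.9%) below it. Genes called in both arms numbered 781, which is 31.3% of the 4-factor calls and 25.8% of the chemical calls. They comprised 285 shared rises (2.00% of genes tested), 324 shared falls (2.27%), 109 genes higher with chemicals and lower with the factors (0.764%), and 63 the other way round (0.442%). Shared means called in the same direction in both arms, whatever the size of the changes. Among shared rises the difference was called above 0 for 57, below 0 for 33 and not for 195. Among shared falls these counts were 16, 77 and 231. The plot of the changes in both arms shows the remaining classes along its axes.

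**Figure D1:**
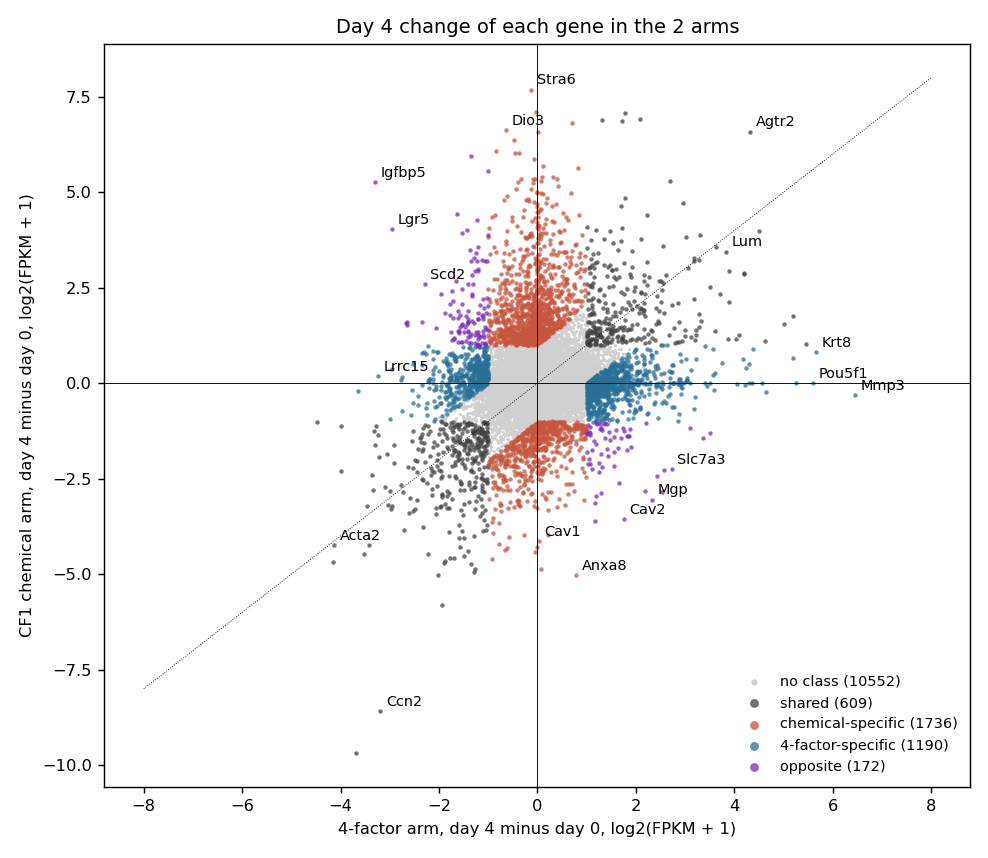
Each point is 1 of 14259 genes, with its day 4 minus day 0 change on log2(FPKM + 1) in the 4-factor arm (x axis) and in the CF1 chemical arm (y axis), coloured by response class; the dotted line marks equal changes. Arm-specific genes lie along the axes, and 172 opposite genes lie in the upper left and lower right quadrants.

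A gene was counted as specific to 1 arm only where it was called there, was not called in the other arm, and the difference was called. Chemical-specific genes numbered 1129 higher (7.92%) and 607 lower (4.26%), and 4-factor-specific genes 762 higher (5.34%) and 428 lower (3.00%). Calls in 1 arm without a called difference numbered 261 higher and 252 lower with chemicals and 274 higher and 250 lower with the factors, and 1128 differed between the arms with neither arm called. Many arm-specific rises came from near silence: 468 of the 1129 chemical-specific higher genes passed the filter on low FPKM only through the chemical day 4 libraries, and 244 of the 762 4-factor-specific higher genes only through the 4-factor day 4 libraries, so these genes had to differ. Without 4-factor day 4 replicate 1, with the same genes tested, 1690 genes fell in that arm, and 1002 were 4-factor-specific higher and 830 lower, against 1101 and 556 chemical-specific; without replicate 2, 759 fell and 254 were 4-factor-specific lower. With the filter applied anew, 222 of the 762 4-factor-specific higher genes were not tested without either 4-factor day 4 library. Likewise, 428 of the 1129 chemical-specific higher genes were not tested without either chemical day 4 library. Rescaling to TPM moved the median of all genes to -0.18 from 0.02 in the 4-factor arm. In the chemical arm it moved to -0.08 from 0.04. On TPM 1251 genes were higher and 2177 lower with the factors, and 1917 higher and 1805 lower with chemicals. The difference was then called above 0 for 2888 genes and below 0 for 2120. Shared genes were 314 higher and 591 lower, and 4-factor-specific genes 638 higher and 844 lower.

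Contractile genes of the fibroblast fell in both arms. Of 16 contractile genes, 14 were shared falls, against 2.27% of all genes, and the list median was -2.11 in the 4-factor arm and -1.83 in the chemical arm, beside 0.02 and 0.04 over all genes. Acta2, smooth muscle actin, went from 1755 and 1688 FPKM on day 0 to 89.7 and 90.5 on day 4 with chemicals. With the factors it went from 1301 and 1381 to 89.8 and 64 FPKM. All 4 day 4 libraries lay far below every day 0 library, and the changes of -4.13 and -4.24 did not differ by a called amount (-0.11 ± 0.18 (SE), adjusted p = 0.603). Actg2, another smooth muscle actin, fell by 3.51 and 4.48 on the log2 scale, and Cnn1, the actin-binding calponin, by 3.35 and 2.80. Myl9, the regulatory light chain of myosin, fell less with chemicals (295 and 279 FPKM on day 0 and 136 and 129 on day 4) than with the factors (181 and 197 FPKM on day 0 and 20.6 and 16.5 on day 4), a difference of 2.18 ± 0.23 (SE), adjusted p = 1.72e-06. The exceptions were Mylk, myosin light chain kinase, which fell only with the factors (-1.06 ± 0.11 (SE) against 0.41 ± 0.11 (SE), difference 1.46 ± 0.16 (SE), adjusted p = 1.91e-06), and Synpo2, which was not called in either arm. Summed skeletal and cardiac muscle markers were lower on day 4 in both arms too (37.4 and 38 FPKM to 4.18 and 3.83 with the factors, 48.1 and 49.8 to 3.19 and 4.08 with chemicals), and their part in these falls was not tested.

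Targets of TGF-beta and YAP fell in both arms and further with chemicals. In this list of 15 genes, 11 fell with the factors (median -1.35) and 14 with chemicals (median -2.76), against 7.79% and 8.74% of all genes. The difference was called towards a deeper chemical fall for 9, against 14.9% of all genes. Ccn2, a matricellular growth factor (chromosome 10, 24595442 to 24598683, plus strand, GRCm38), had 873 and 843 FPKM on day 0 and 1.11 and 1.37 on day 4 in the chemical arm. In the 4-factor arm it had 256 and 245 FPKM on day 0 and 28 and 25.1 on day 4. Day 0 and day 4 libraries did not overlap in either arm, the chemical day 4 libraries were the lowest of all, and the changes of -3.19 ± 0.11 (SE) and -8.58 ± 0.11 (SE) differed by -5.39 ± 0.16 (SE), adjusted p = 2.23e-12. Ankrd1, a nuclear ankyrin protein and standard YAP reporter, fell by 5.80 with chemicals and 1.94 with the factors on the log2 scale. The receptor kinase gene Axl fell by 4.70 and 1.90. Starting levels were unequal, since Ccn2 and Ankrd1 were several-fold higher in CF1 than in 129XOG2 day 0 libraries, a gap across tables that carries no test. Tgfbi, a secreted adhesion protein induced by TGF-beta, was the exception and rose with chemicals (22.9 and 22.1 FPKM on day 0 and 199 and 200.3 on day 4; 3.10 ± 0.15 (SE)).

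Promoters of this list were searched for the letters bound by TEAD factors, GGAATG on either strand. A promoter (RefSeq, GRCm38.p6, 250 bases before to 50 after the start) was found for 8 of the 14 genes that fell with chemicals, and 7 of them held the motif, which 16.6% of all gene symbols with a promoter hold (14.7% of promoters). Ankrd1 (chr19:36119795-36120094, minus strand) and Ajuba (chr14:54577612-54577911, minus strand), a LIM protein of the Hippo pathway that fell with chemicals (-1.93 ± 0.09 (SE)), are shown because they hold 2 matches each. Capitals mark the motif.
Ankrd1: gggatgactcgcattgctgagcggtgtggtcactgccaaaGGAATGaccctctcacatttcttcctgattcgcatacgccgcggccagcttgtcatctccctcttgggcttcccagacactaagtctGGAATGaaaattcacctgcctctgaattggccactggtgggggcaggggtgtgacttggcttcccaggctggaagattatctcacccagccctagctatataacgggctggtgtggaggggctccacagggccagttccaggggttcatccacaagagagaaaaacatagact
Ajuba: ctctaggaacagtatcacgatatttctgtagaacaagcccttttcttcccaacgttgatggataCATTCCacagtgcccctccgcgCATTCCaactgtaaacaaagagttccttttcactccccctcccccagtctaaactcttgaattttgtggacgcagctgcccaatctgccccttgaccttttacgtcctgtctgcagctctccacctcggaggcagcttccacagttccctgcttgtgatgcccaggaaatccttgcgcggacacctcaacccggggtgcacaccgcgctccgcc
A match is a description of the sequence and not evidence of binding.

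Of 21 genes of the ATF4 amino-acid stress response, 8 fell and 2 rose with the factors and 13 fell and 4 rose with chemicals, against 7.79% falling and 9.71% rising of all genes with the factors and 8.74% and 12.5% with chemicals. Chac1, a glutathione-degrading enzyme, had 28.9 and 31.1 FPKM on day 0 and 3.67 and 2.09 on day 4 in the 4-factor arm. The chemical libraries had 9.68 and 8.82 FPKM on day 0 and 0.195 and 0.0431 on day 4. Each arm lost most of the transcript without overlap between days, and the difference was not called (-0.17 ± 0.30 (SE), adjusted p = 0.644). The chemical day 4 values lay under 1 FPKM, where the scale understates a fall, so this does not show equal falls. Trib3, the pseudokinase that feeds back on ATF4, fell by 3.00 and 2.81, and Atf4 itself by 1.43 and 1.26. The serine synthesis enzyme Phgdh and asparagine synthetase Asns fell by 3.20 and 2.17 with chemicals, against -0.77 and -0.18 with the factors, which were not called. The cystine carrier Slc7a11 and its partner chain Slc3a2 went against this, rising with chemicals (2.07 and 1.09) and falling with the factors (-1.53 and -1.56). Among the other largest shared falls, Tnfrsf12a, the TWEAK receptor, fell by 3.43 and 4.24, and Gjb2, a gap junction connexin, by 3.46 and 3.21. Of the 13 genes that fell with chemicals 11 had a promoter, and 3 of these, Trib3, Chac1 and Asns, held the amino-acid response letters TGATGNAA, which 4.51% of symbols hold.

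Among shared rises, Agtr2, the angiotensin II type 2 receptor (chromosome X, 21484544 to 21489164, plus strand), had 4.57 and 4.34 FPKM on day 0 and 91.8 and 129 on day 4 in the 4-factor arm. In the chemical arm Agtr2 had 0.769 and 0.899 FPKM on day 0 and 176 and 174 on day 4. Every day 4 library exceeded every day 0 library, and the rise was larger with chemicals (6.58 ± 0.13 (SE) against 4.33 ± 0.13 (SE), difference 2.25 ± 0.18 (SE), adjusted p = 8.38e-08). Bex1, a small adaptor protein gene of the X chromosome, rose by 4.50 and 3.99, and Lum, the collagen-binding proteoglycan lumican, by 3.84 and 3.44. Angptl4, a secreted inhibitor of lipoprotein lipase, reached nearly the same level in both arms (2.12 and 2.23 FPKM on day 0 and 35.4 and 41.9 on day 4 with the factors, 1.55 and 1.73 FPKM on day 0 and 31.8 and 28.4 on day 4 with chemicals). The difference of its changes was not called (-0.08 ± 0.24 (SE), adjusted p = 0.788). The related secreted protein gene Angptl7 rose by 3.30 and 3.88, the matrix protein gene Spon2 by 3.29 and 3.22, and the urea transporter gene Slc14a1 by 3.19 and 3.20. Dsp, which encodes the desmosomal plaque protein desmoplakin, rose in both arms (0.356 and 0.334 FPKM on day 0 and 11.4 and 8.73 on day 4 with the factors, 0.252 and 0.251 FPKM on day 0 and 16.8 and 16.6 on day 4 with chemicals), and so did the desmosomal cadherin gene Dsc2 (2.08 and 1.93). Sall4, a zinc finger factor of pluripotent cells, was listed at 0 in all 4 day 0 libraries and at 3.8 and 5.31 FPKM with the factors and 2.76 and 2.64 with chemicals. Tfap2c, an AP-2 factor of trophoblast and germ cells, rose by 2.55 and 2.63, and Cdkn2a, the cell cycle inhibitor locus, by 2.19 and 2.33.

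Many transcripts of the mitochondrial genome were also higher on day 4. Their summed share of FPKM was 4.77% and 5.58% on chemical day 0 and 13.2% and 12.8% on day 4, and 5.08% and 5.35% on 4-factor day 0; its part in other results was not tested. Of 13 such protein-coding genes, 8 rose with the factors (median 1.24, against 9.71% of all genes) and 13 with chemicals (median 1.57, against 12.5%). After quantile normalization 3 and 5 were called. mt-Nd2, a subunit of respiratory complex I, had 884 and 954 FPKM on day 0 and 2990.0 and 2526 on day 4 with the factors and 907 and 1054 FPKM on day 0 and 3633 and 3537 on day 4 with chemicals, with no overlap between days. mt-Cytb had 2017 and 2117 FPKM on day 0 and 3606 and 1177 on day 4 with the factors, so that its day 4 replicates lay on either side of day 0, and 2081 and 2354 FPKM on day 0 and 6116 and 6040.0 on day 4 with chemicals.

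Genes that take up, bind and clear retinoic acid rose with chemicals. Of 15 retinoid genes, all tested, 10 rose and 1 fell in the chemical arm (median 1.98, beside 12.5% rising among all genes). In the 4-factor arm 1 rose and 1 fell (median -0.44), against 9.71% and 7.79% of all genes. The difference was called above 0 for 11 genes and below 0 for 2, against 16.0% and 14.9% of all genes. Of these 15 genes, 3 passed the filter only through the chemical day 4 libraries. Stra6, the membrane receptor that imports vitamin A (chromosome 9, 58063788 to 58153996, plus strand), had 0.133 and 0.213 FPKM on day 0 and 246 and 236 on day 4 in the chemical arm. Under the factors Stra6 had 0.0497 and 0.127 FPKM on day 0 and 0 and 0 on day 4. The chemical day 4 libraries stood alone, with a change of 7.69 ± 0.10 (SE) against -0.12 ± 0.10 (SE) and a difference of 7.81 ± 0.14 (SE), adjusted p = 1.29e-13. Cyp26b1, a retinoic acid hydroxylase, had 3.85 and 3.74 FPKM on day 0 and 307 and 312 on day 4 with chemicals and 13.8 and 12.08 FPKM on day 0 and 9.5 and 8.9 on day 4 with the factors, a difference of 6.47 ± 0.13 (SE), adjusted p = 1.29e-13.

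Its sister enzyme gene Cyp26a1 was listed at 0 in both chemical day 0 libraries and at 8.52 and 7.78 FPKM on day 4, while the 4-factor libraries held at most 0.0565 FPKM. Rarb, a retinoic acid receptor known as a direct target of the family, had 0.674 and 0.719 FPKM on day 0 and 48.5 and 50.7 on day 4 with chemicals. With the factors Rarb had 0.868 and 0.541 FPKM on day 0 and 0.232 and 0.00631 on day 4, and the difference was 5.50 ± 0.17 (SE), adjusted p = 2.84e-12. Among the carriers and enzymes, the binding protein gene Crabp1 went from 114 and 99 to 2971 and 3008 FPKM with chemicals (4.80 ± 0.20 (SE)), and Dhrs3, which reduces retinal to retinol, from 8.88 and 8.39 to 223 and 228 (4.55 ± 0.13 (SE)). The synthesising dehydrogenases split: Aldh1a2 rose with chemicals (2.70 ± 0.16 (SE)), Aldh1a3 fell with chemicals (-1.71 ± 0.19 (SE)), and Aldh1a1 rose with the factors (2.45 ± 0.15 (SE)) with a difference of -3.37 ± 0.21 (SE). Rdh10, which makes retinal, rose with chemicals (1.98) and fell with the factors (-1.09).

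Promoters of the retinoid genes were searched for direct repeats of the hexamer NGNTCA, 5 bases apart, on either strand, a search chosen after the values had been seen. Of the 10 genes that rose with chemicals, 7 had a promoter, and 2 of these, Rarb and Cyp26a1, held the repeat, which 0.988% of all symbols hold (0.861% of promoters). Both are shown, since they went from under 1 FPKM to their chemical day 4 levels, with the repeat in capitals (Rarb, chr14:16575427-16575726, minus strand; Cyp26a1, chr19:37697558-37697857, plus strand; RefSeq, GRCm38.p6).
Rarb: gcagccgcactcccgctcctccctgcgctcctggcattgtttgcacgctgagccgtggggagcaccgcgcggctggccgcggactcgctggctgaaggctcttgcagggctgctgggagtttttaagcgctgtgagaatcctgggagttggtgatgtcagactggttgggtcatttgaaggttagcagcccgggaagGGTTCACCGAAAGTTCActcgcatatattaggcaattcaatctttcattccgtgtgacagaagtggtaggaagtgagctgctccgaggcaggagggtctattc
Cyp26a1: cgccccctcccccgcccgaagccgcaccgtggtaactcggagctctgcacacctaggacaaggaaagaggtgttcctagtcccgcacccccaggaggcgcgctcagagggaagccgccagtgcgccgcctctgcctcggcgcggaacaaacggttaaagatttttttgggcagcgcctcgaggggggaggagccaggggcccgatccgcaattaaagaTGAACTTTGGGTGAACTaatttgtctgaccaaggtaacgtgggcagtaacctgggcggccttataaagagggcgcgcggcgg
The other 5 promoters hold no such repeat in this window, which says nothing of sites elsewhere.

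Wnt target genes and the secreted inhibitors they include rose with chemicals almost as a whole. Of 17 tested genes of 19, 16 rose in the chemical arm (median 3.59), against 12.5% of all genes. Of the 17, 4 passed the filter only through the chemical day 4 libraries. With the factors 2 rose and 5 fell (median -0.23), against 9.71% and 7.79% of all genes. The difference was called above 0 for 16, against 16.0% of all genes. Axin2, the negative regulator used as a Wnt reporter, had 3.01 and 2.76 FPKM on day 0 and 72.3 and 76.4 on day 4 with chemicals. Its 4-factor levels were 2.4 and 2.37 FPKM on day 0 and 0.579 and 0.313 on day 4. It rose by 4.28 ± 0.11 (SE) in 1 arm and fell in the other (-1.23 ± 0.11 (SE)), without overlap between days in either. Nkd1, an inhibitor of Dishevelled, had 1.56 and 1.5 FPKM on day 0 and 154 and 157 on day 4 with chemicals. The 4-factor libraries had 2.02 and 2.45 FPKM on day 0 and 0.435 and 0.105 on day 4, and the difference was 7.31 ± 0.21 (SE), adjusted p = 2.07e-12. Notum, a lipase that inactivates Wnt ligands, had 2 and 1.45 FPKM on day 0 and 172 and 179 on day 4 with chemicals. Under the factors Notum had 0.539 and 0.92 FPKM on day 0 and 0.533 and 0.135 on day 4, and the difference was 6.41 ± 0.28 (SE), adjusted p = 1.66e-10. The extracellular inhibitors Wif1 (116 and 118 FPKM on chemical day 4) and Apcdd1 (165 and 172 FPKM) rose by 6.82 and 5.36, against 0.71 and -0.33 with the factors, neither of them called. Dkk2, another inhibitor, and Lef1, a nuclear effector, rose in both arms: Dkk2 by 2.48 and 2.67, Lef1 by 2.55 and 3.59. Znrf3, a ligase that removes Wnt receptors, was the 1 tested gene that did not reach the call with chemicals (0.88 ± 0.16 (SE)).

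The remaining largest chemical-specific rises came from low levels. Dio3, the deiodinase that inactivates thyroid hormone (chromosome 12, 110279068 to 110281097, plus strand), had 0.339 and 0.0986 FPKM on day 0 and 115 and 122 on day 4 with chemicals. With the factors Dio3 had 0.942 and 0.832 FPKM on day 0 and 0.153 and 0.271 on day 4, and the difference was 7.26 ± 0.21 (SE), adjusted p = 2.26e-12. Cabp7, a calcium-binding protein gene, was listed at 0 in both chemical day 0 libraries and at 133 and 139 FPKM on day 4, and at no more than 0.0342 FPKM in the 4-factor libraries. Nrgn, neurogranin, had 0.0335 and 0.0859 FPKM on day 0 and 94.9 and 107 on day 4 with chemicals. Its 4-factor levels were 0.0339 and 0.125 FPKM on day 0 and 0.17 and 0 on day 4. In these genes the chemical day 4 libraries were the only ones above 1 FPKM. Tril, an accessory protein of Toll-like receptors, and Tmem132c, a membrane protein gene, rose by 6.09 and 6.38 with chemicals, against -0.85 and -0.47 with the factors. Factors of extra-embryonic endoderm appeared as well: of 9 tested genes of a list of 15, 6 rose with chemicals, against 12.5% of all genes, and 5 of the 9 were tested only through the chemical day 4 libraries. Sox17 was listed at 0 in the other 6 libraries and at 20 and 23 FPKM on chemical day 4. Gata6 had 3.94 and 3.94 FPKM on day 0 and 14.2 and 15.8 on day 4 with chemicals and fell with the factors (2.88 and 2.85 FPKM on day 0 and 0.635 and 0.698 on day 4).

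Hox genes, which encode position along the body axis, and growth genes moved apart between the arms. Of 30 Hox genes, 12 rose with chemicals (median 0.78) and 9 fell with the factors (median -0.66), and the difference was called above 0 for 25. Of all genes, 12.5% rose with chemicals, 7.79% fell with the factors and 16.0% had a difference above 0, the shares against which the counts of this paragraph stand. On TPM 18 fell with the factors, and 17 with a pseudocount of 0.1. Hoxb9 had 10.9 and 9.67 FPKM on day 0 and 32.8 and 34.2 on day 4 with chemicals. The 4-factor libraries had 16 and 15.2 FPKM on day 0 and 2.79 and 1.78 on day 4, and the difference was 3.97 ± 0.18 (SE), adjusted p = 2.3e-10. Hoxc5 likewise rose by 2.15 and fell by 1.72, and the day 4 libraries of the arms lay on opposite sides of all 4 day 0 libraries for both genes. Of 13 genes of the insulin-like growth factor axis, 6 rose with chemicals and 4 fell with the factors (7 on TPM), and 10 differed. Igf1 rose with chemicals (2 and 2.21 FPKM on day 0 and 39 and 37.6 on day 4; 3.66 ± 0.10 (SE)), and Igfbp3, a binding protein, rose in both arms and more with chemicals (1.36 and 3.79, difference 2.42 ± 0.12 (SE), adjusted p = 4.08e-10). Of 18 imprinted growth genes, 8 rose with chemicals, 5 fell with the factors (9 on TPM), and 10 differed. Mest, a paternally expressed hydrolase gene, had 7.96 and 9.61 FPKM on day 0 and 147 and 148 on day 4 with chemicals. Under the factors Mest had 93.8 and 92.8 FPKM on day 0 and 32.9 and 30.4 on day 4, and the difference was 5.46 ± 0.14 (SE), adjusted p = 1e-12. Cdkn1c, a maternally expressed cell cycle inhibitor, rose with chemicals only (3.02 ± 0.16 (SE) against 0.23 ± 0.16 (SE), difference 2.79 ± 0.22 (SE)). Dlk1 fell in both arms (-2.61 and -3.40).

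Interferon-response and antigen-processing genes fell with chemicals. Of 27 tested genes of 31, 21 fell and 1 rose in the chemical arm (median -1.77), against 8.74% of all genes falling. In the 4-factor arm 1 fell and 3 rose (median 0.08), against 7.79% and 9.71% of all genes. The difference was called below 0 for 22, against 14.9% of all genes. Isg15, a ubiquitin-like modifier, had 32.9 and 31.6 FPKM on day 0 and 0.916 and 1.48 on day 4 with chemicals. With the factors Isg15 had 19.7 and 18.9 FPKM on day 0 and 7.58 and 12.6 on day 4, and the difference was -3.02 ± 0.38 (SE), adjusted p = 1.1e-05. Oas1a, a sensor of double-stranded RNA, had 6.66 and 6.94 FPKM on day 0 and 0.121 and 0 on day 4 with chemicals. Its 4-factor levels were 1.47 and 2.02 FPKM on day 0 and 1.04 and 2.13 on day 4, and the difference was -2.77 ± 0.25 (SE), adjusted p = 3.96e-07. Both fell without overlap with chemicals, and neither change with the factors was called. Bst2, the antiviral protein tetherin, rose with the factors (1.31) and fell with chemicals (-2.19), and so did Ifit1 (1.04 and -2.11) and the class I antigen gene H2-K1 (1.03 and -1.09). B2m, the light chain of class I antigens, had 386 and 366 FPKM on day 0 and 113 and 106 on day 4 with chemicals. The 4-factor libraries had 192 and 215 FPKM on day 0 and 323 and 313 on day 4. Ifit2 was the exception and rose with chemicals (1.39 ± 0.09 (SE)). Among genes of at least 5 FPKM, 13 of 18 fell with chemicals.

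The interferon-stimulated response element was searched as the letters GAAA and GAAA with 2 bases of any kind between, on either strand. It was found in 10 of the 17 promoters available for the 21 falling genes, against 3.99% of all symbols (3.44% of promoters). Isg15 (chr4:156200769-156201068, minus strand), Ifit1 (chr19:34640639-34640938, plus strand) and Oas1a (chr5:120907476-120907775, minus strand) are shown as 3 of the 5 that hold more than 1 match before the start, with Bst2 and Gbp3. Capitals mark the matched letters (RefSeq, GRCm38.p6).
Isg15: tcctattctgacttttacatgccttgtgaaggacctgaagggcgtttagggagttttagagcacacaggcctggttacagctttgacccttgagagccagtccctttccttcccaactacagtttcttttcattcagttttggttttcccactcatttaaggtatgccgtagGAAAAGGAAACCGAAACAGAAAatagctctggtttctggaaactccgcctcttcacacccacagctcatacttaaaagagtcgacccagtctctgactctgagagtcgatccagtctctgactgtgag
Ifit1: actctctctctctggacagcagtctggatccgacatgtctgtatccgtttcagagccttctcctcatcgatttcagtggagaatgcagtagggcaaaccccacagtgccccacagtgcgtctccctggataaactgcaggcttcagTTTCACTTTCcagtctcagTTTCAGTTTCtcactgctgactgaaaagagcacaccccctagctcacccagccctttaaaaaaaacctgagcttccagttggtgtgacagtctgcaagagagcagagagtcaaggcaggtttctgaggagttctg
Oas1a: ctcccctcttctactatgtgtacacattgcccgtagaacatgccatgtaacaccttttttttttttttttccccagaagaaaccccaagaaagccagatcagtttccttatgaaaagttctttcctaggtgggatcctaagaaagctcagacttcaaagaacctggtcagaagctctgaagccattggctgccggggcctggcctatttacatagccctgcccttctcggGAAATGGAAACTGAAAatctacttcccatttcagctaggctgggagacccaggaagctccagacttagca
The level differences above are those of the transcripts, and binding was not measured.

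Macrophage markers moved with the same groups. The summed level of 12 markers was 278 to 298 FPKM in chemical day 0 libraries and 13.0 to 13.3 on day 4, and 30.6 to 34.1 and 17.9 to 18.3 FPKM in the 4-factor libraries. Of 11 tested markers, 11 fell with chemicals (median -2.72), against 8.74% of all genes. Of these, 3 passed the filter only through chemical day 0 libraries. With the factors 4 fell and 1 rose, against 7.79% and 9.71% of all genes (8 fell on TPM). Tyrobp, a signalling adaptor of myeloid cells, was at 0 in both chemical day 4 libraries, and Lyz2, macrophage lysozyme, had 207 and 195 FPKM on day 0 and 8.36 and 7.27 on day 4. Fewer macrophages and less RNA per cell cannot be told apart in bulk libraries, and the part of these cells in the interferon and chemokine results was not tested. The chemokine genes Ccl6 and Ccl9, which macrophages express, were among the largest chemical-specific falls: Ccl6 had 40.9 and 39.7 FPKM on day 0 and 0.667 and 1.22 on day 4 with chemicals and at most 0.0545 FPKM in 4-factor libraries. Ccl9 fell by 3.98.

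Among other chemical-specific falls, Anxa8, a membrane-binding annexin (chromosome 14, 34085981 to 34100571, plus strand), had 42.8 and 41.3 FPKM on day 0 and 0.306 and 0.337 on day 4 with chemicals. Under the factors Anxa8 had 24.7 and 25.3 FPKM on day 0 and 54.8 and 35.1 on day 4, and the difference was -5.82 ± 0.27 (SE), adjusted p = 2.72e-10. Cav1, the coat protein of caveolae, had 514 and 533 FPKM on day 0 and 28.6 and 29.3 on day 4 with chemicals and 227 and 231 FPKM on day 0 and 233 and 232 on day 4 with the factors, where all 4 libraries were almost level. Col8a1, a short-chain collagen, and Aspn, the proteoglycan asporin, fell by 4.86 and 4.28 with chemicals and changed by 0.06 and -0.02 with the factors, not called. Cd109, a TGF-beta co-receptor, fell by 3.19, and Ifi27l2a, an interferon-induced gene, by 3.06. Vim, vimentin, the main intermediate filament of mesenchyme, fell with chemicals (2747 and 2730.0 FPKM on day 0 and 504 and 520.1 on day 4) and was not called with the factors (1773 and 1813 FPKM on day 0 and 2183 and 2540.0 on day 4), a difference of -2.81 ± 0.15 (SE), adjusted p = 9.47e-10. Of 26 ribosome biogenesis genes, 6 fell with chemicals (median -0.80; 12 fell on TPM), against 8.74% of all genes, and 1 rose with the factors, against 9.71%. The difference was called below 0 for 12, against 14.9%. That gene was Npm1, the nucleolar chaperone nucleophosmin (398 and 421 FPKM on day 0 and 1064 and 1066 on day 4 with the factors, 504 and 484 FPKM on day 0 and 327 and 325 on day 4 with chemicals).

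Of 18 tested epithelial genes of 24, 17 rose with the factors (median 2.44), against 9.71% of all genes. With chemicals 3 rose (median 0.15), against 12.5% of all genes. The difference was called below 0 for 16, against 14.9% of all genes. The chemical count depended on the scale: 5 rose and 0 fell on TPM, and 8 rose and 1 fell with a pseudocount of 0.1. Of all 14259 genes, 1917 rose and 1805 fell with chemicals on TPM, and 2398 and 1641 with that pseudocount. The difference was called below 0 for 16 under both. Of these 18, 13 passed the filter only through the 4-factor day 4 libraries, and without replicate 1 or replicate 2 of that group 8 passed the filter and 8 rose. Summed keratinocyte markers were higher on 4-factor day 4 (9.57 and 7.57 FPKM, from 1.46 and 1.97), with 0.734 and 0.656 FPKM on chemical day 0 and 1.99 and 2.48 on day 4, and their part in the list was not tested. Cdh1, E-cadherin, had 0.0224 and 0 FPKM on day 0 and 8.02 and 5.44 on day 4 with the factors. With chemicals Cdh1 had 0.103 and 0.118 FPKM on day 0 and 0.0956 and 0.113 on day 4, and the difference was -2.92 ± 0.19 (SE), adjusted p = 8.75e-09. Perp, a desmosomal protein, had 1.61 and 1.83 FPKM on day 0 and 88.8 and 109.5 on day 4 with the factors. Its chemical levels were 6.48 and 7.32 FPKM on day 0 and 11.2 and 11.6 on day 4. Both were highest in the 4-factor day 4 libraries, with no other library near them. Beside the shared rise of Dsp and Dsc2, no rise was called in the chemical arm for Cdh1, the vesicle GTPase gene Rab25 (-0.09 ± 0.12 (SE)) or the splicing factor gene Esrp1, which was at or under 0.0366 FPKM there. Krt8, a keratin of simple epithelia, had 0.64 and 0.66 FPKM on day 0 and 87.5 and 78.5 on day 4 with the factors. With chemicals Krt8 had 0.28 and 0.33 FPKM on day 0 and 1.3 and 1.27 on day 4. That change of 0.81 ± 0.13 (SE) was under the 2-fold of a call, and the difference was -4.86 ± 0.19 (SE), adjusted p = 3.87e-11.

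Naive pluripotency genes also rose mostly with the factors. Of 15 tested genes of 26, 12 rose with the factors (median 2.19, against 9.71% of all genes) and 2 with chemicals (median 0.00, against 12.5%), and 11 of the 15 were tested only through the 4-factor day 4 libraries. With that group reduced to 1 library, 4 genes passed the filter, with a median of -0.85 without replicate 1 and -0.52 without replicate 2. With the same 15 genes kept, the medians were 2.15 and 2.25. Keeping the set cannot answer for the filter, since both libraries of that group had chosen these 11 genes. L1td1, an RNA-binding protein, and Tdh, threonine dehydrogenase, were listed at 0 in the other 6 libraries. On 4-factor day 4 L1td1 had 40.8 and 34.4 FPKM and Tdh 19 and 18.4 FPKM. The naive genes that rose with chemicals were Sall4 and Tbx3, a T-box factor (4.39 and 4.55 FPKM on day 0 and 56.5 and 59.8 on day 4 with chemicals, 4.13 and 3.98 FPKM on day 0 and 2.22 and 1.45 on day 4 with the factors; difference 4.28 ± 0.18 (SE), adjusted p = 1.17e-10). Klf2, a Krüppel-like factor of the naive state, fell with chemicals (24.2 and 24.2 FPKM on day 0 and 0.887 and 1.21 on day 4).

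Outside these lists, Mmp3, the matrix protease stromelysin (chromosome 9, 7445822 to 7455975, plus strand), had the widest difference among 4-factor-specific rises that met the naming rule, with 1.51 and 1.65 FPKM on day 0 and 202 and 254 on day 4 against 15 and 16.3 FPKM on day 0 and 12.5 and 12.18 on day 4 with chemicals (difference -6.78 ± 0.16 (SE), adjusted p = 6.35e-13). Atp2a3, a calcium pump of the endoplasmic reticulum, and Cyp4f39, a lipid hydroxylase, rose by 4.64 and 4.56 with the factors, and both stayed under 1 FPKM in the chemical libraries. Of 17 hypoxia-response genes, 9 rose with the factors (median 1.20, 9.71% of all genes) and 5 with chemicals (median 0.46, 12.5% of all genes). The difference was called below 0 for 7 (14.9% of all genes) and above 0 for 1 (16.0%). Car9, carbonic anhydrase 9, had 0.237 and 0.439 FPKM on day 0 and 24.5 and 23.8 on day 4 with the factors. The chemical libraries had 0.417 and 0.155 FPKM on day 0 and 0.686 and 0.717 on day 4, and the difference was -3.83 ± 0.17 (SE), adjusted p = 1.82e-10. Bnip3, a mitophagy receptor, rose in both arms and more with the factors (3.01 and 1.39, difference -1.62 ± 0.22 (SE), adjusted p = 1.86e-05). Vegfa, the angiogenic growth factor, was the gene that went the other way, with 18 and 18.1 FPKM on day 0 and 123 and 124 on day 4 with chemicals. With the factors Vegfa had 29.6 and 29.3 FPKM on day 0 and 30.6 and 29.8 on day 4. The letters ACGTG were present in 6 of the 7 promoters available for 9 genes that rose with the factors, and in 21.8% of all symbols.

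Cholesterol synthesis fell with the factors and was mostly not called with chemicals. Of 23 genes of synthesis and uptake, 19 fell with the factors (median -1.26, against 7.79% of all genes falling). With chemicals 2 rose (median 0.22), against 12.5% of all genes. The difference was called above 0 for 19, against 16.0% of all genes. Sqle, squalene epoxidase, had 83.6 and 80.5 FPKM on day 0 and 22.1 and 22.9 on day 4 with the factors. In the chemical arm Sqle had 34 and 35.8 FPKM on day 0 and 43 and 45.8 on day 4, and the difference was 2.16 ± 0.12 (SE), adjusted p = 1.98e-09. In the 4-factor arm day 0 and day 4 did not overlap. Day 0 levels of Sqle and of Hmgcs1, which makes HMG-CoA, were higher in 129XOG2 than in CF1 MEFs (for Hmgcs1 132 and 134 against 38 and 34.8 FPKM), and on day 4 Hmgcs1 stood at 48.3 and 63.9 FPKM with the factors and 54.9 and 53.1 with chemicals. The sterol element TCACNCCAC was found in 1 of 13 promoters of the falling genes, that of Hmgcs1, and in 1.44% of all symbols.

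Among 4-factor-specific falls that met the naming rule, the widest difference was that of Lrrc15, a leucine-rich membrane protein induced by TGF-beta (chromosome 16, 30269302 to 30283256, minus strand), with 60.4 and 53.3 FPKM on day 0 and 5.26 and 4.98 on day 4 against 11.9 and 13.2 FPKM on day 0 and 14.3 and 14.5 on day 4 with chemicals (difference 3.42 ± 0.14 (SE), adjusted p = 5.24e-11). Nuak1, an AMPK-related kinase, had 28.2 and 26.2 FPKM on day 0 and 2.82 and 2.49 on day 4 and Fads2, a fatty acid desaturase, 92.2 and 90.9 FPKM on day 0 and 18.2 and 16 on day 4 with the factors. In the chemical arm the day 4 libraries of these 3 genes were all above those of day 0, by less than the 2-fold of a call. Fam20a, a pseudokinase of the secretory pathway, Lrrc32, which holds latent TGF-beta at the membrane, Slit3, a guidance ligand, Igfbp2 and the lipase gene Mgll fell by 2.23, 2.31, 2.53, 2.26 and 2.12 with the factors. The immediate-early factor Fos fell with the factors (103 and 98.7 FPKM on day 0 and 17.9 and 15.4 on day 4) and was not called with chemicals (16 and 15.6 FPKM on day 0 and 10.5 and 11.2 on day 4), a difference of 2.03 ± 0.13 (SE), adjusted p = 7.74e-09.

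**Figure D2:**
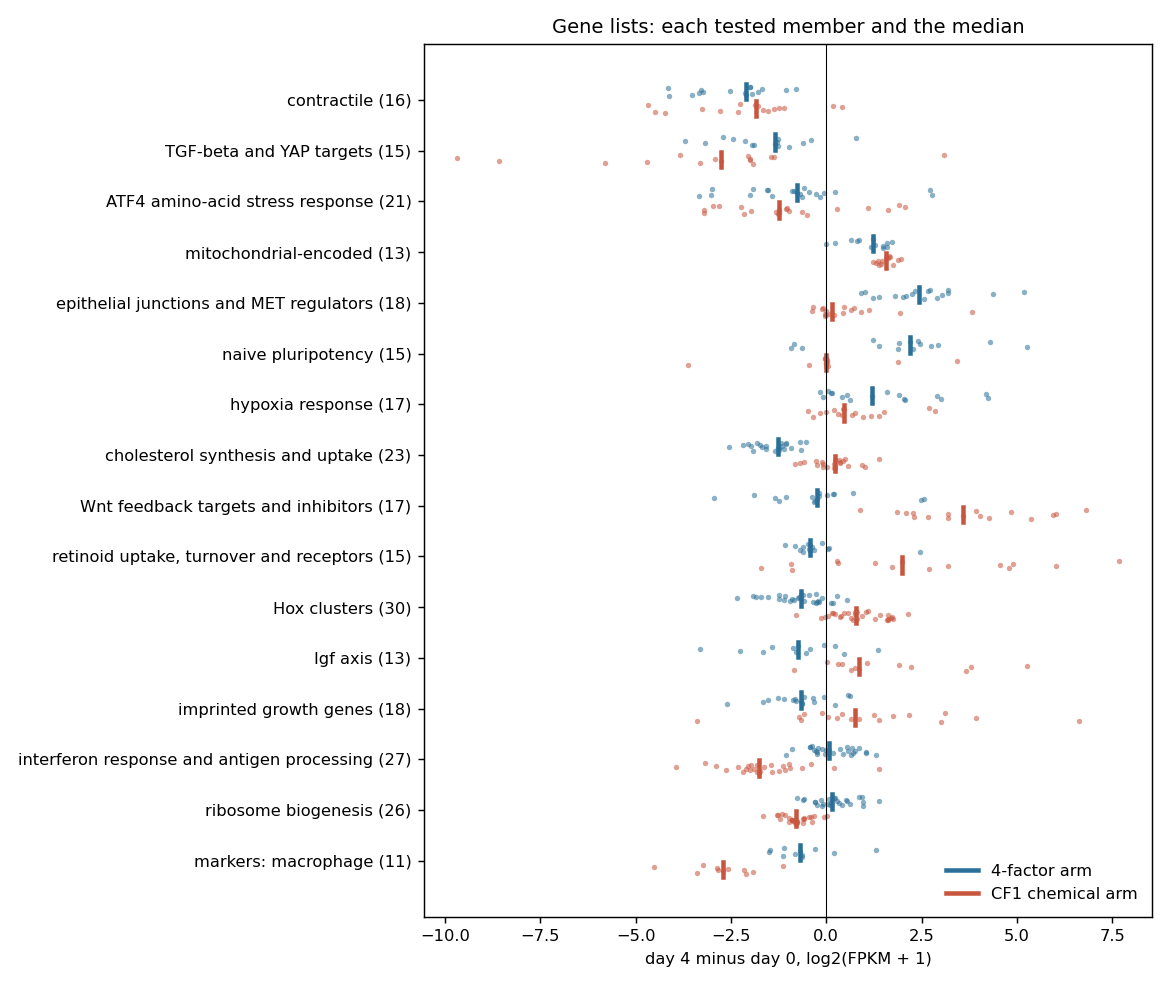
Day 4 minus day 0 change on log2(FPKM + 1) (x axis) of every tested member (points) of 16 gene lists (y axis, number tested in parentheses) in the 4-factor arm (blue) and CF1 chemical arm (red); thick bars are medians. The contractile list has medians of -2.11 (4-factor) and -1.83 (chemical), the Wnt list -0.23 and 3.59, and the retinoid list -0.44 and 1.98; members of the naive and epithelial lists were tested largely because they were high on 4-factor day 4.

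In 172 genes the arms moved in opposite directions, 109 with chemicals higher and 63 with chemicals lower. On TPM these counts were 224 and 102, and with a pseudocount of 0.1 they were 297 and 178. The widest among the named genes was Igfbp5, a secreted binding protein of insulin-like growth factors (chromosome 1, 72857932 to 72874884, minus strand), with 196 and 167 FPKM on day 0 and 22.4 and 13.5 on day 4 with the factors. Its chemical levels were 7.69 and 7.26 FPKM on day 0 and 326 and 327 on day 4. The day 4 order of the arms was thus the reverse of the day 0 order, and the changes of -3.30 ± 0.15 (SE) and 5.27 ± 0.15 (SE) differed by 8.57 ± 0.22 (SE), adjusted p = 1e-12. Lgr5, a receptor of R-spondins that amplifies Wnt signals, had 16.9 and 15.4 FPKM on day 0 and 1.48 and 0.991 on day 4 with the factors and 0.726 and 0.481 FPKM on day 0 and 25.7 and 24.6 on day 4 with chemicals (difference 6.98 ± 0.17 (SE), adjusted p = 9.83e-13), crossing in the same way. Scd2, a fatty acid desaturase, fell by 2.29 with the factors and rose by 2.59 with chemicals, ending at 460.1 and 471 FPKM, near the level from which the 4-factor arm started (507 and 467). Sfrp2, a secreted Wnt-binding protein, was similar, with 60.2 and 59.6 FPKM on 4-factor day 0 and 74.8 and 78.7 on chemical day 4. Genes that began level in both arms were Twist2, a mesenchymal transcription factor (53.9 and 38.5 FPKM on day 0 and 13.8 and 11.6 on day 4 with the factors, 42.4 and 40.1 FPKM on day 0 and 177 and 178 on day 4 with chemicals), and Hic1, a transcriptional repressor (-1.78 and 1.80). Dchs1, a large protocadherin of planar polarity, changed by -1.74 and 2.41, and Cck, the peptide hormone cholecystokinin, by -1.96 and 2.34, with chemical day 0 replicates of 6.92 and 2.91 FPKM.

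The opposite pattern, up with the factors and down with chemicals, was seen in Slc7a3, a cationic amino acid carrier, with 6.1 and 7.18 FPKM on day 0 and 44 and 55.5 on day 4 with the factors. The chemical libraries had 4.85 and 5.12 FPKM on day 0 and 0.243 and 0.281 on day 4, and the difference was -4.97 ± 0.17 (SE), adjusted p = 1.01e-11. Day 0 levels were close, and day 4 left the arms at the extremes. Mgp, matrix Gla protein, an inhibitor of calcification, had 115 and 120.2 FPKM on day 0 and 649 and 543 on day 4 with the factors. In the chemical arm Mgp had 51.5 and 46.2 FPKM on day 0 and 4.79 and 5.24 on day 4, and the difference was -5.37 ± 0.23 (SE), adjusted p = 8.8e-11. Txnip, a thioredoxin inhibitor and brake on glucose uptake, went from 17.5 and 16.4 to 95.8 and 95.8 FPKM with the factors and from 46.2 and 41.5 to 7.42 and 7.09 with chemicals. Uchl1, a deubiquitinase, had 19.6 and 20.3 FPKM on day 0 and 76.3 and 118 on day 4 with the factors. With chemicals Uchl1 had 67.1 and 68.5 FPKM on day 0 and 9.49 and 8.15 on day 4. Cav2, the partner of caveolin-1, changed by 1.76 and -3.56, and Ugcg, which makes glucosylceramide, by 1.83 and -1.75. Fcgr2b, an inhibitory IgG receptor, is known from myeloid cells. It had 0.0979 and 0.205 FPKM on day 0 and 5.23 and 6.62 on day 4 with the factors. Its chemical levels were 8.55 and 7.76 FPKM on day 0 and 0.857 and 0.935 on day 4. Its rise with the factors went against the summed macrophage markers, which were lower on day 4 in that arm too, as did that of Laptm5, a lysosomal protein of blood cells and the 1 marker of that list that rose (2.4 and 2.4 FPKM on day 0 and 7.51 and 7.29 on day 4).

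**Figure D3:**
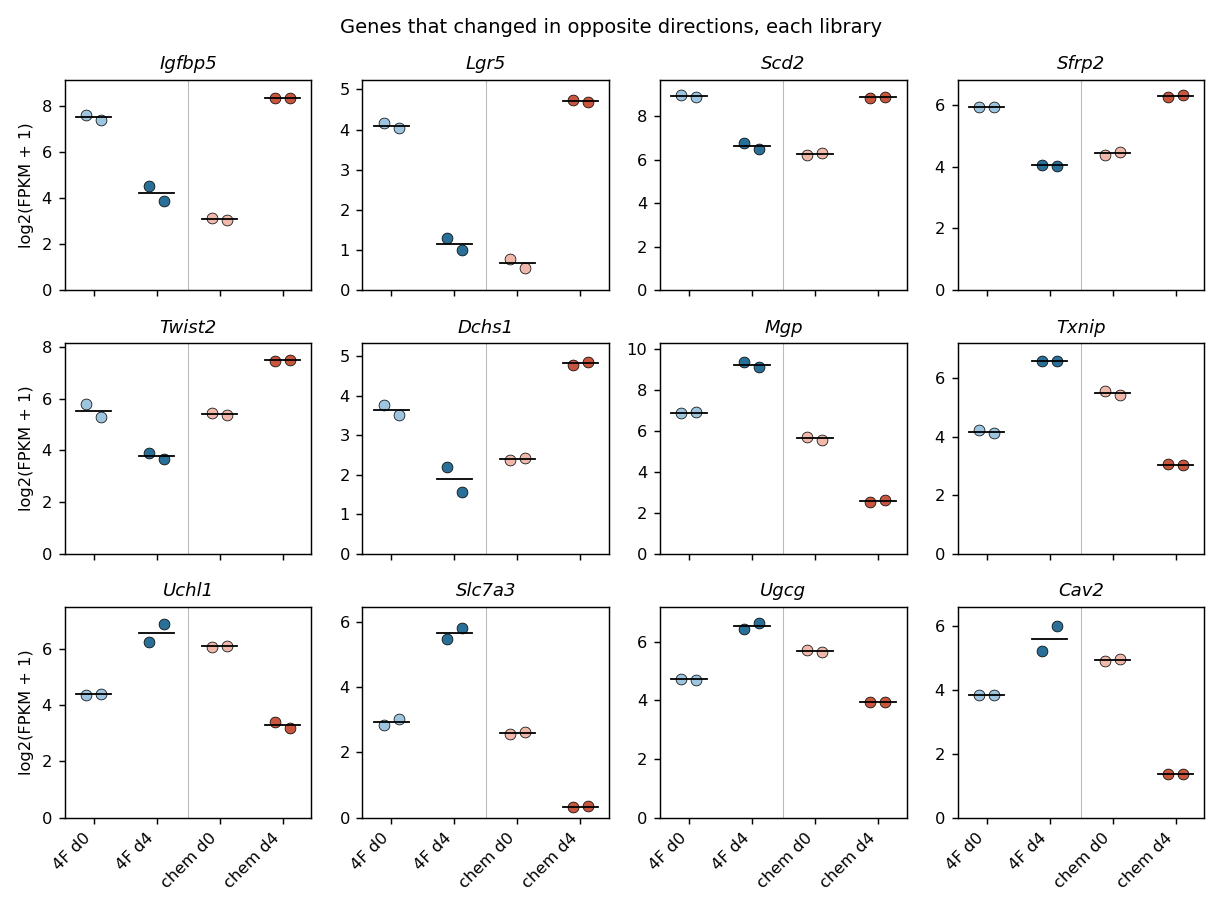
Level on log2(FPKM + 1) (y axis) of 12 genes called in opposite directions, in the 4-factor arm (4F, blue) and the CF1 chemical arm (chem, red) on day 0 (d0) and day 4 (d4); circles are the 2 libraries and bars their mean. In each panel the arms move in opposite directions without overlap between days. The arms exchange their order between days for Igfbp5, Lgr5, Scd2, Sfrp2, Dchs1, Txnip, Uchl1, Ugcg and Cav2.

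Starting points were unequal in several classes. Of the 109 genes higher with chemicals and lower with the factors, 30 (27.5%) were at least 2-fold lower in CF1 than in 129XOG2 day 0 libraries, against 3.24% of all genes tested. Of the 63 genes with the other pattern, 27 (42.9%) were at least 2-fold higher in CF1 on day 0, against 3.84%. Among chemical-specific falls 199 of 607 (32.8%) started at least 2-fold higher in CF1, and among shared falls 69 of 324 (21.3%). Specific rises with the factors stood near all genes (3.15% lower and 4.2% higher in CF1). The median gap, CF1 minus 129XOG2, went from -0.54 on day 0 to 2.59 on day 4 in the first class and from 0.87 to -2.27 in the second. Every opposite gene changed by 2-fold or more in each arm, in opposite directions. The change of sign of these medians therefore follows from the rule of the classes. These levels are set across separately deposited tables and carry no test, and since the day 0 libraries enter the classes, the gaps are a description.

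The levels on other days were no criterion of the classes, although those libraries entered the shared estimate of the spread. The 1129 chemical-specific higher genes had a median level of 3.30 on chemical day 4, 2.67 on day 8, 2.15 on day 12 and 0.79 in the induced pluripotent stem cells (iPSCs) of that arm, from 0.99 on day 0. The 762 4-factor-specific higher genes had 2.45, 3.54 and 2.79 on days 2, 4 and 7 of the 4-factor arm and 3.19 in its iPSCs. In the chemical arm the same genes stood at 1.79, 2.00 and 1.82 on days 4, 8 and 12 and at 3.25 in iPSCs, so the iPSCs of both arms ended close together. The 109 opposite genes that were high with chemicals had 4.62 on day 4, 3.44 on day 12 and 0.92 in iPSCs, and 0.82 in iPSCs of the 4-factor arm. The 63 genes of the other pattern stood at 1.38, 1.87 and 1.32 on chemical days 4, 8 and 12 and at 3.12 in iPSCs, beside 3.19 on day 0. Shared falls stood at 2.76 on day 4 and 3.49 on day 7 of the 4-factor arm. They stood at 2.87, 3.06 and 3.04 on chemical days 4, 8 and 12, and were lowest in iPSCs (1.77 and 2.04). Shared rises were also lower in iPSCs (2.21 and 2.46) than on day 4 (3.96 and 3.87). Days 0 and 4 chose the classes, so their levels, peaks on day 4 included, are descriptions on log2(FPKM + 1), and the time points of the arms differ after day 4.

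**Figure D4:**
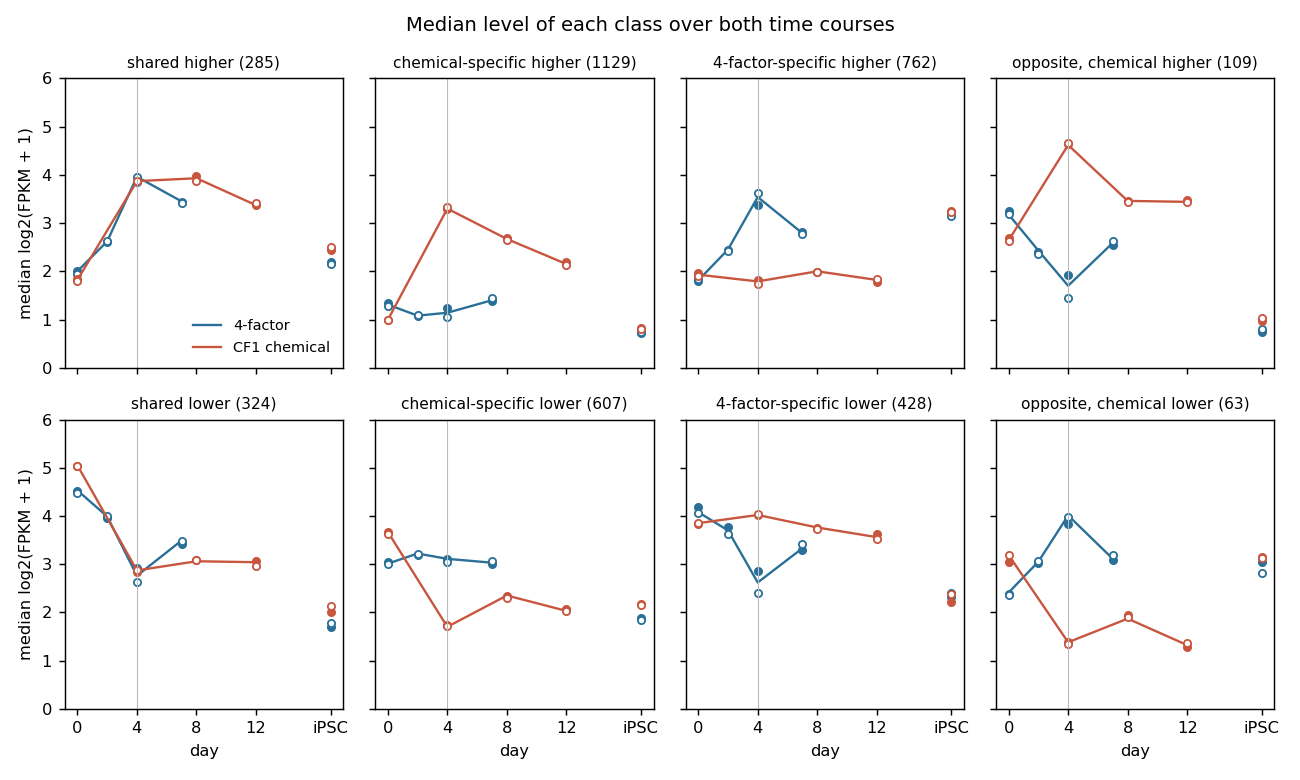
Median log2(FPKM + 1) (y axis) of the genes of each class, number in parentheses, over the days of the 4-factor arm (blue) and the CF1 chemical arm (red) (x axis, iPSC at the right end, not joined by a line); filled and open circles are replicates 1 and 2, and the grey line marks day 4. Chemical-specific higher genes peak at 3.30 on day 4 and fall to 0.79 in iPSCs, and 4-factor-specific higher genes lie between 1.79 and 2.00 in the chemical arm from day 4 until iPSCs, where they reach 3.25.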

How the data were processed

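Total RNA was sequenced by Novogene on the Illumina NovaSeq platform, per the labels' protocols. The submitters' processing notes name fastp 0.20.1, HISAT2 2.2.1, StringTie 2.0 and mm10; the annotation and strand setting are not given in the sources used here. The authors deposited FPKM values per gene, 55401 identifiers in each of the tables used, of which 99.5% matched a symbol in GENCODE M21. Rows were joined by identifier. FPKM keeps no read counts: steps between low values would put 35975000 to 40830000 units per library, but only 0.587% to 2.29% of low values lay within 0.3% of a step, so no counts were recovered.

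limma 3.58.1 (R 4.3.3, empirical Bayes with a trend) was fitted to log2(FPKM + 1) of 20 libraries, 1 coefficient per group for 10 groups, which share the estimate of the spread. The filter on low values kept 14259 genes, those reaching 1 FPKM in 2 or more of the 8 libraries of days 0 and 4, and all p-values were Benjamini-Hochberg adjusted over them. The script was tested on simulated data. Named genes are, among those with a group mean of 5 FPKM or more, no overlap between days in the called arm and no provisional symbol, the 8 per class with the largest smaller change of the arms (shared and opposite) or the largest difference (specific), and list members. The response classes, the named genes and the 49 gene lists were chosen with earlier results of these data known, and 1 promoter motif was added after the values had been seen. Other motifs had also been planned. AP-1 (TGANTCA) and CRE (TGACGTCA) letters were in 0 of 6 promoters of immediate-early genes that fell with the factors (8.97% and 2.03% of symbols). Xenobiotic element letters (GCGTG) were in 1 of 2 promoters of AhR and Nrf2 response genes that rose with the factors (35.2% of symbols). Replicate numbers do not pair the libraries (correlation of replicate differences between days 0.13 and 0.0). The libraries of the removal experiment were not used here, and some genes that met the naming rule are not reported here. Alternatives were TPM, quantile normalization, another pseudocount, a stricter and no filter, the 8 libraries alone, a replicate block, robust variance and leaving out each library.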

Additional observations from a re-analysis of the deposited data

Results flagged for a closer look

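Each result here is a tested difference between the arms under the same contrast, day 4 minus day 0. The chemical minus 4-factor difference was called above 0 for 2284 genes and below 0 for 2125. Among the named genes called in opposite directions, the difference on the log2 scale was 8.57 for Igfbp5, 6.98 for Lgr5, 4.88 for Scd2, 4.30 for Cck, 3.74 for Sfrp2, 3.58 for Hic1, 3.85 for Twist2 and 4.16 for Dchs1. With the chemical change below the 4-factor change, it was -4.87 for Txnip, -5.37 for Mgp, -4.85 for Fcgr2b, -4.97 for Slc7a3, -5.01 for Uchl1, -5.32 for Cav2 and -3.57 for Ugcg. Groups of 2 libraries are too small for a search for single outlying samples.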

How the results depend on the processing

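For each of the 64 named genes 1 call was checked. It was that of the smaller change for shared genes and that of the difference for specific and opposite genes. This call was kept under each alternative in which the gene was tested, 24 for most and 22 for 11 of them. The check did not cover the other calls that set the class, so a gene could change class and still count as kept. Of 949 single-gene results 0 reversed, while 153 lost a call under some alternative and 110 of them without 1 library. On TPM, 2177 genes fell with the factors and 1805 with chemicals, and 2888 had a called difference above 0. Of the classes, 591 genes were shared falls, 844 were 4-factor-specific lower, and 224 and 102 were opposite with chemicals higher and lower. With a pseudocount of 0.1 these were 1741 falls with the factors, 619 shared rises, 515 shared falls, and 297 and 178 opposite genes. With a minimum of 5 FPKM, 723 chemical-specific and 498 4-factor-specific higher genes were called, because fewer genes were tested (10210). Leaving out 1 library at a time, with the genes tested either chosen anew or kept (the latter added after seeing the data), gave 759 to 1690 falls with the factors, 700 to 1130 chemical-specific higher, 396 to 1002 4-factor-specific higher, 254 to 830 4-factor-specific lower, and 82 to 163 and 62 to 77 opposite genes. The ends come from 4-factor day 4 replicates 1 and 2, except for chemical-specific higher genes, of which 428 were not tested without 1 chemical day 4 library. At the low end of 4-factor-specific higher genes, 222 genes of that class were not tested. Why the 4-factor day 4 replicates differ was not tested. A fit without 1 library assumes that the lone sample of its group varies like the other groups. The replicate block, for numbers that do not pair the samples, gave 2281 and 2128 genes with a called difference in place of 2284 and 2125 and changed 0 of the 949 single-gene calls. FPKM without counts gives no sampling error for single genes.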

Other observations

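Of 20 collagen genes, 7 fell and 1 rose with the factors (7.79% and 9.71% of all genes), and 5 fell and 6 rose with chemicals (8.74% and 12.5%). The difference was called above 0 for 10 and below 0 for 2 (16.0% and 14.9% of all genes). Col1a1, the main fibrillar collagen, fell with the factors (2451 and 2253 FPKM on day 0 and 1046 and 594 on day 4) and was not called with chemicals (1469 and 1431 FPKM on day 0 and 813 and 854 on day 4), nor was the difference (0.78 ± 0.26 (SE)). Basement membrane collagens Col4a1 and Col4a2 fell in both arms (-1.86 and -1.37 for Col4a1). Col18a1, the source of endostatin, rose with chemicals (15.4 and 14.7 FPKM on day 0 and 268 and 277 on day 4). With the factors it had 13.5 and 12.8 FPKM on day 0 and 36.2 and 21.1 on day 4, a change of 1.02 ± 0.20 (SE) that was called but not on TPM, without 4-factor day 0 replicate 2 or without day 4 replicate 1. The difference was 3.08 ± 0.29 (SE), adjusted p = 5.04e-07. Against the same shares, of 21 elastic fibre genes 11 fell with the factors and 7 with chemicals, where 5 rose. Eln, elastin, fell more with the factors (158 and 156 FPKM on day 0 and 10.4 and 7.62 on day 4) than with chemicals (58 and 49.8 FPKM on day 0 and 23.8 and 24.7 on day 4), while Lox, the enzyme that cross-links elastin and collagen, fell more with chemicals (-3.48 against -1.18, difference -2.31 ± 0.17 (SE), adjusted p = 4.59e-08). Mmp11, a stromal protease, rose with chemicals (9.88 and 7.6 FPKM on day 0 and 204 and 208 on day 4) and fell with the factors (22.9 and 21 FPKM on day 0 and 9.11 and 4.45 on day 4).

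Against the same shares, of 29 tested fibroblast identity genes of 30, 10 rose and 8 fell with chemicals, and 2 rose and 8 fell with the factors, or 5 fell without 4-factor day 4 replicate 2. Pdgfra, the receptor that marks mesenchyme, rose with chemicals (26.1 and 26.6 FPKM on day 0 and 292 and 303 on day 4; 3.45 ± 0.09 (SE)), and so did the transcription factor Twist1 (32.8 and 32.3 FPKM on day 0 and 427 and 454 on day 4). Pdgfrb, the related receptor, fell in both arms (-2.25 and -2.61), and S100a4, a calcium-binding protein of motile fibroblasts, fell with chemicals (412 and 353 FPKM on day 0 and 37.9 and 41.9 on day 4). Of 30 replication and mitosis genes, 6 fell with chemicals (8.74% of all genes) and 1 with the factors, under the 7.79% of all genes (14 with chemicals on TPM, and 4 with the factors without 4-factor day 4 replicate 1), with Rrm2, a ribonucleotide reductase subunit, at -1.24 ± 0.07 (SE) and 0.19 ± 0.07 (SE). Ccl8, a chemokine, rose in both arms (0.506 and 0 FPKM on day 0 and 155 and 137 on day 4 with chemicals, 0.0861 and 0.299 FPKM on day 0 and 1.91 and 1.96 on day 4 with the factors; difference 5.59 ± 0.23 (SE), adjusted p = 8.13e-11).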
